A study of Mus musculus with 31 samples.

Results

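MicroRNAs (miRNAs) were compared between *Ago2* KO/CLIPΔ and CLIPΔ mouse embryonic stem cells (mESCs) by small RNA-seq, with 4 libraries of each genotype. The comparison asks what the loss of Ago2 does to miRNAs in mESCs whose *Ago2* mRNA can no longer be bound by the RNA-binding protein Trim71. All miRNAs with a mean of at least 100 TPM over these 8 libraries were taken, which were 249 of the 507 miRNAs in the table. TPM is the number of reads per base of the mature miRNA, scaled to the same total in every library, so each value is a level relative to the other miRNAs of its library. A loss or gain shared by all miRNAs would not show on this scale. Just inside the limit of 100 TPM were miR-195a-3p (mean 102.8 TPM), let-7f-5p (103.2), and miR-195a-5p (103.3), and just outside it were miR-872-3p (96.4), miR-187-3p (96.2), and miR-700-5p (96).

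The cells were derived from the ES-E14TG2a line, carried a FLAG tag on both *Trim71* alleles, and were grown in 2i and lif, conditions that hold mESCs in the naive state. CLIPΔ mESCs lack, on both alleles, the stretch of the *Ago2* 3’UTR to which Trim71 binds. *Ago2* KO/CLIPΔ mESCs carry that same deletion and were in addition made *Ago2* KO with CRISPR/Cas9 and a pair of guides in the coding region. WT mESCs, which carry the FLAG tag alone, and *Ago2* KO mESCs, which have an intact Trim71-binding region, gave 4 small RNA-seq libraries each and are used for the same comparison outside the CLIPΔ background. CLIPΔ was made as 2 independent clones, and the sources used here do not say which clone gave which library. The labels call the libraries of a genotype biological replicates but do not say what separated them, so the p-values measure the spread between these libraries.

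The genotypes differed in depth. The reads behind the deposited values, inferred from the step between low values, numbered 897636 to 1355997 in the *Ago2* KO/CLIPΔ libraries and 3165634 to 7947222 in the CLIPΔ libraries, with medians of 1062726 and 7013286 (a ratio of 6.6). The libraries of the genotypes with *Ago2* carry letters (A to D) and those without it carry numbers (1 to 4), so the *Ago2* genotype, the depth, and any difference in preparation that goes with the naming cannot be told apart. Members held 99.24% to 99.32% of the TPM of each of the 8 libraries. Across members, the correlation of log2 levels (descriptive, members of a library share its depth) was 0.936 to 0.991 between CLIPΔ libraries, 0.994 to 0.998 between *Ago2* KO/CLIPΔ libraries, and 0.579 to 0.598 between the genotypes. *Ago2* KO/CLIPΔ library 1 was closer to library 2, and library 3 to library 4 (0.998 for both pairs), than the other pairs (0.994 to 0.995). The CLIPΔ libraries varied more, with a median SD over members of 0.336 on the log2 scale against 0.112.

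Argonaute proteins hold mature miRNAs and use the seed, bases 2 to 8 of the miRNA, to find target mRNAs. A miRNA is cut from a hairpin whose arms, 5p and 3p, form a duplex, and the arm that is loaded into Argonaute is usually kept while the other is lost. In mESCs the miR-290-295 cluster supplies many of the miRNAs, whereas let-7 miRNAs, which promote differentiation, are held low by Lin28a.

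*Ago2* mRNA was checked first, in the RNA-seq of the same genotypes (2 CLIPΔ and 4 *Ago2* KO/CLIPΔ libraries). It stood at 27.3 and 20.3 TPM in the CLIPΔ libraries and at 1.51, 1.72, 2.87, and 2.60 TPM in the *Ago2* KO/CLIPΔ libraries. Its log2 change was −2.97 (SE 0.22, adjusted p = 0.000771, limma), or −2.72 relative to the median of all genes, and the groups did not overlap.

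The mature sequences below are those on which the results turn, from RefSeq on GRCm38.p6, which held a mature sequence for 216 of the 249 members. Capitals mark the seed, bases 2 to 8. The let-7 members share the seed GAGGUAG, and they are shown because every one of them was lower without Ago2.
let-7b-5p: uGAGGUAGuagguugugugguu
let-7d-5p: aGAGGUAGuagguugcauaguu
let-7e-5p: uGAGGUAGgagguuguauaguu
let-7f-5p: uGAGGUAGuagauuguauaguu
let-7g-5p: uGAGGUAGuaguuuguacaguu
let-7i-5p: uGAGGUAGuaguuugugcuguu
miR-98-5p: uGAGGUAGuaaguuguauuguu
They lie at chr15:85707325-85707346 (let-7b-5p, plus strand), chr13:48536078-48536099 (let-7d-5p, minus), chr17:17830366-17830387 (let-7e-5p, plus), chr9:106178846-106178867 (let-7g-5p, plus), chr10:122985698-122985719 (let-7i-5p, minus), and chrX:151913229-151913250 (miR-98-5p, plus), and let-7f-5p is encoded at 2 loci. The miRNAs with the seed AAGUGCU, the seed of mESC-enriched miRNAs of the miR-290-295 cluster on chromosome 7 and the miR-302 cluster on chromosome 3, are shown because they did not move together.
miR-294-3p: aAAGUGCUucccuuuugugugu
miR-295-3p: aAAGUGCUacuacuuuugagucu
miR-291a-3p: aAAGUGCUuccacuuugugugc
miR-302d-3p: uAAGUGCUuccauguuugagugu
miR-302b-3p: uAAGUGCUuccauguuuuaguag
The sequences of miR-148a-3p, miR-148b-3p, and miR-152-3p differ outside a common seed and also moved apart, and those of miR-130a-3p and miR-130b-3p, and of miR-181c-5p and miR-181d-5p, moved in the same direction, by similar amounts for miR-130 and by different amounts for miR-181.
miR-148a-3p: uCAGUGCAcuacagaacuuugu
miR-148b-3p: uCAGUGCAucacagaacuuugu
miR-152-3p: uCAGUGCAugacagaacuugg
miR-130a-3p: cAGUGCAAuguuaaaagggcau
miR-130b-3p: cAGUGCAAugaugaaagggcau
miR-181c-5p: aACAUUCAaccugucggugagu
miR-181d-5p: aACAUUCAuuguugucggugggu
The remaining sequences are those of members with the largest changes outside these groups for which RefSeq held a sequence, 2 that were lower (miR-324-5p and miR-107-3p) and 8 that were higher.
miR-324-5p: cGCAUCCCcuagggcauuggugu
miR-107-3p: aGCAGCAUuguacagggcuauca
miR-3963: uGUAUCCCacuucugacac
miR-494-3p: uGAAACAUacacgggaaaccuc
miR-381-3p: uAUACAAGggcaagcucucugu
miR-96-5p: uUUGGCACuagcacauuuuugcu
miR-27a-5p: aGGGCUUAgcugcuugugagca
miR-195a-3p: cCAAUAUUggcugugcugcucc
miR-224-5p: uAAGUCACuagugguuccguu
miR-434-5p: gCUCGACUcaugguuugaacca

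Most members differed between the genotypes, in both directions. The test was limma on log2(TPM + 1) with Benjamini–Hochberg adjustment over the 249 members and a threshold of 0.05, and it called 205 of them (82.3%). Of these, 115 (46.2%) were higher and 90 (36.1%) were lower in *Ago2* KO/CLIPΔ than in CLIPΔ mESCs, and 44 were not called. The 4 libraries of a genotype did not overlap those of the other for 198 members (79.5%), 112 of them higher (45%) and 86 lower (34.5%) without Ago2. The log2 change was at least 1 in size for 161 members, at least 2 for 89, and at least 4 for 26, of which 12 were higher and 14 lower. Because the limit was set on the mean over both genotypes, 30 members had a mean under 100 TPM in CLIPΔ and 36 in *Ago2* KO/CLIPΔ mESCs and passed only through the genotype in which they were high, so their difference is in part set by the limit. Of the 183 members whose mean reached 100 TPM in both genotypes, 140 were called, 85 higher and 55 lower. The median log2 change over all members was 0.27, and the changes ran from −6.46 to 7.13.

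The order of the members by level also differed. miR-295-3p was the most abundant miRNA in every CLIPΔ library, with 18.2% to 23.5% of the TPM, whereas miR-293-3p led every *Ago2* KO/CLIPΔ library with 9.85% to 10.3%. The 10 most abundant miRNAs held 56.4% to 60.4% of the TPM in CLIPΔ libraries and 52% to 53.2% in *Ago2* KO/CLIPΔ libraries. After miR-293-3p, the next most abundant in *Ago2* KO/CLIPΔ mESCs was miR-148a-3p, which stood at 12696, 13599, 9430.0, and 5019 TPM in CLIPΔ and at 71783, 75387, 81072, and 84802 TPM in *Ago2* KO/CLIPΔ libraries (7.68-fold higher, log2 change 3.04, SE 0.26, adjusted p = 8.79e-07, limma).

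**Figure D1:**
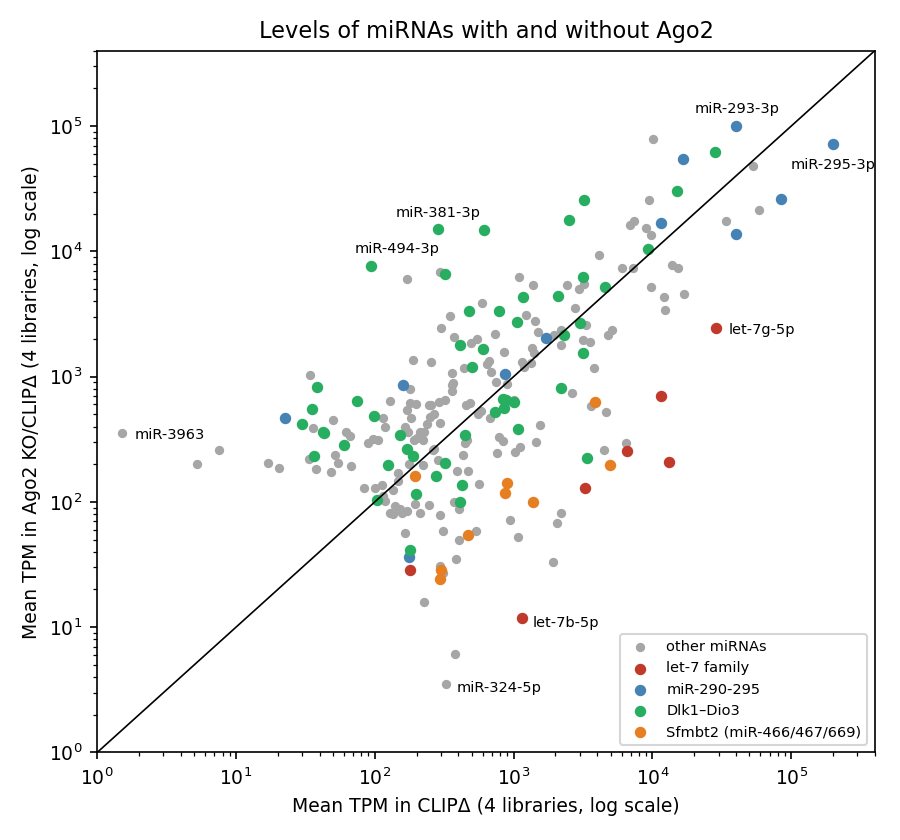
Mean level of each of the 249 members in CLIPΔ mESCs (x axis, TPM, log scale) against *Ago2* KO/CLIPΔ mESCs (y axis, TPM, log scale), 1 point per miRNA and 4 libraries per mean, with the line of equal levels and the let-7, miR-290-295, Dlk1–Dio3, and Sfmbt2 lists coloured. The let-7 points all lie under the line, and points of the miR-290-295 list lie on both sides of it.

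The let-7 family was lower throughout. Of 12 let-7 and miR-98 mature sequences in the table, 7 were members, and 7 of 7 fell, where 36.1% of all members fell. The median log2 change was −4.62 against 0.27 for all members, with a range from −6.46 to −2.58. Together the 12 in the table made up 7.23%, 5.93%, 6.76%, and 6.16% of the TPM in CLIPΔ libraries A to D and 0.401%, 0.406%, 0.355%, and 0.361% in *Ago2* KO/CLIPΔ libraries 1 to 4. The mean share was thus 6.52% ± 0.589 (SD, n = 4) against 0.381% ± 0.0263 (SD, n = 4), a 17.1-fold difference. No library of either genotype came near the range of the other. In WT mESCs the share was 0.718% ± 0.377 (SD, n = 4) and in *Ago2* KO mESCs 0.448% ± 0.0378 (SD, n = 4).

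The 7 members do not include let-7a or let-7c. Among them, let-7g-5p was the most abundant in both genotypes, at 32698, 28176, 30023, and 25075 TPM in CLIPΔ and 2537, 2572, 2312, and 2353 TPM in *Ago2* KO/CLIPΔ libraries. It was 11.9-fold lower (log2 change −3.56, SE 0.12, adjusted p = 1.05e-09, limma). let-7d-5p stood at 11786, 9715, 14246, and 16806 TPM in CLIPΔ and 241, 233, 187, and 170.0 TPM in *Ago2* KO/CLIPΔ libraries. It was 63.2-fold lower and so fell from a level near that of let-7i-5p to less than that of let-7e-5p. let-7i-5p went from 14952, 11401, 12159, and 7833 TPM to 754, 739, 627, and 692 TPM, a log2 change of −4.01 (SE 0.19). let-7b-5p showed the lowest log2 change of all members, from 895, 823, 1142, and 1768 TPM to 8.11, 14.2, 10.6, and 14.5 TPM (−6.46, SE 0.27, adjusted p = 2.34e-09, limma). The *Ago2* KO/CLIPΔ values of let-7b-5p rest on 7 to 19 reads per library, and those of CLIPΔ on 5437 to 8069. let-7b-5p passed the limit of 100 TPM only through the CLIPΔ libraries, so its difference is in part set by the limit. For each of these miRNAs the highest *Ago2* KO/CLIPΔ library lay far below the lowest CLIPΔ library.

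let-7e-5p fell from a mean of 6542 ± 1240.1 to 253 ± 24.2 TPM (SD, n = 4 each, log2 change −4.67), and miR-98-5p from 3249 ± 823 to 129.6 ± 27.4 TPM (−4.62). let-7f-5p was measured at 183, 176, 201, and 151 TPM in CLIPΔ and 26.6, 30.1, 29.9, and 28.6 TPM in *Ago2* KO/CLIPΔ libraries (−2.58, SE 0.15). It had the smallest change of the family, and its level depends on how reads that match both of its loci were assigned. let-7f-5p also passed the limit of 100 TPM only through the CLIPΔ libraries. The miRNAs that are transcribed with let-7e from 1 cluster did not follow it to the same extent. miR-99b-5p fell from 12149 ± 3092 to 4292 ± 325 TPM (log2 change −1.47, adjusted p = 1.54e-05, limma), whereas miR-125a-5p rose from a mean of 1221 to 3093 TPM (1.38, adjusted p = 5.42e-05).

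**Figure D2:**
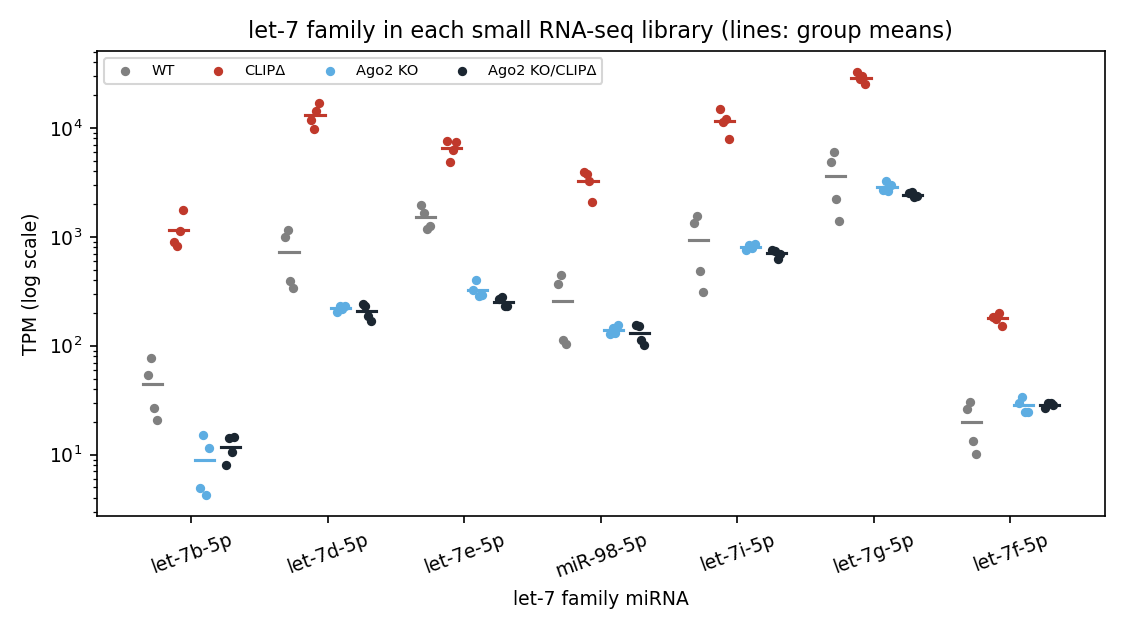
Levels of the 7 let-7 members (TPM, log scale) in each small RNA-seq library of the 4 genotypes (WT and CLIPΔ, then *Ago2* KO and *Ago2* KO/CLIPΔ), 1 dot per library with a line at the mean of 4. For let-7g-5p the CLIPΔ dots lie between 25075 and 32698 TPM and the *Ago2* KO/CLIPΔ dots between 2312 and 2572 TPM.

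The miR-290-295 cluster split by mature sequence. Its list gave 11 mature sequences in the table, all of them members, and none was from miR-290a or miR-292a. The share of these 11 in the TPM was 39.5% ± 3.33 in CLIPΔ and 28.9% ± 0.479 in *Ago2* KO/CLIPΔ mESCs (SD, n = 4 each), and the groups did not overlap (36.1% to 44.1% against 28.3% to 29.4%). Of the 11, 5 were higher, 4 were lower, and 2 were not called, near the shares of all members (46.2% higher and 36.1% lower). Their median log2 change was 0.29, with a range from −2.27 to 4.31, the latter in miR-292b-3p. miR-295-3p fell from 181363, 233802, 189143, and 190624 TPM to 74078, 68371, 74243, and 70759.8 TPM (2.77-fold lower, log2 change −1.46, SE 0.09, adjusted p = 5.38e-08, limma). miR-294-3p fell from 74895, 87496, 85039, and 91147 TPM to 26788, 25004, 25292, and 26901 TPM (log2 change −1.70, SE 0.09). These miRNAs alone held 28.4% ± 2.76 of the TPM in CLIPΔ and 9.79% ± 0.327 in *Ago2* KO/CLIPΔ mESCs (SD, n = 4 each).

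Others of the same cluster rose. miR-293-3p went from 39352, 48355, 41753, and 30753 TPM to 98457, 100621, 101707, and 103312 TPM (2.52-fold higher, log2 change 1.35, SE 0.13, adjusted p = 1.64e-06, limma), and its partner arm miR-293-5p from 16575 ± 4639 to 54972 ± 1499.9 TPM (1.78). miR-291b-5p rose from 159 ± 38.5 to 854 ± 77.7 TPM (2.44), while miR-291b-3p, cut from the same hairpin, fell from 176 ± 14.9 to 36.6 ± 10.1 TPM (−2.27). miR-291b-3p passed the limit of 100 TPM only through the CLIPΔ libraries. miR-292b-3p, listed by name, lies on the minus strand, whereas the other members of the list lie on the plus strand. It showed the highest change of the list, from 25.7, 19.4, 21, and 24.6 TPM to 447, 577, 444, and 413 TPM (4.31, SE 0.17). It passed the limit only through the *Ago2* KO/CLIPΔ libraries. miR-291a-5p fell from 39894 ± 11609 to 13865 ± 906 TPM (−1.48). miR-291a-3p, with 8967, 16372, 11862, and 8958 TPM in CLIPΔ and 16427, 15615, 17643, and 18240.5 TPM in *Ago2* KO/CLIPΔ libraries, was called higher (0.60, adjusted p = 0.0111) although CLIPΔ library B lay inside the range of the other genotype, and the call was lost with quantile normalization (0.41, adjusted p = 0.103) and when libraries 1 and 2 and libraries 3 and 4 were averaged (adjusted p = 0.0664). The 2 not called were miR-294-5p (0.29, SE 0.19) and miR-295-5p (0.24, SE 0.13).

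All 5 members of the miR-302 cluster, which shares targets with the miR-290-295 cluster through the common seed, were called higher, where 46.2% of all members were. The share of the cluster went from 0.469% ± 0.0803 to 1.51% ± 0.0643 (SD, n = 4 each). miR-302b-3p rose from 274, 279.6, 326, and 309 TPM to 7289, 6444, 6573, and 6868 TPM (22.9-fold, log2 change 4.51, SE 0.13, adjusted p = 5.10e-10, limma). miR-302d-3p, the most abundant of the cluster in CLIPΔ mESCs, changed much less, from 2784, 2249.9, 3221, and 2789.6 TPM to 3607, 3390.2, 3471, and 3620.4 TPM (0.36, SE 0.14, adjusted p = 0.0334). Its call was lost with median centring (0.22, adjusted p = 0.249), with let-7 left out of the totals (0.27, 0.104), with quantile normalization (0.31, 0.0759), with libraries 1 and 2 and libraries 3 and 4 averaged (0.164), and on leaving out any *Ago2* KO/CLIPΔ library (adjusted p 0.0607 to 0.0808) or CLIPΔ library A (0.0505). For both, every *Ago2* KO/CLIPΔ library was above every CLIPΔ library.

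Members with a common seed did not always move together. The 5 members with a RefSeq sequence and the seed AAGUGCU comprised 2 that fell (miR-294-3p and miR-295-3p) and 3 that rose (miR-302d-3p, miR-291a-3p, and miR-302b-3p). The calls of miR-302d-3p and miR-291a-3p were lost under other settings, as given above. Among members with a RefSeq sequence, 23 seeds were shared by 2 or more members, 64 members in all. Of these seeds, 8 had called members in both directions, 14 had them in 1 direction, and 1 had none. With 46.2% of all members called higher and 36.1% lower, these counts describe the seeds and were not tested. With the seed CAGUGCA, miR-148a-3p rose, while miR-148b-3p fell from 5139.9 ± 1426 to 2339.7 ± 229 TPM (log2 change −1.09) and miR-152-3p from 609, 1587, 725, and 462 TPM to 227, 208, 405, and 377 TPM (−1.37, SE 0.36). With the seed AAAGUGC, the seed of the miR-17 family, 2 of 6 members rose and 3 fell, for example miR-20a-5p (1.23) and miR-17-5p (−1.13), which come from the same transcript. Among the seeds with called members in 1 direction were, apart from GAGGUAG, the seeds AGUGCAA, with miR-130b-3p (−4.69) and miR-130a-3p (−4.08), and ACAUUCA, with miR-181c-5p (−5.73) and miR-181d-5p (−0.89).

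Clusters and families with known roles in cell growth and cell fate were mixed in the same way. Their counts, here and in the families below, stand beside 46.2% of all members called higher and 36.1% called lower. They were listed by name, and arms whose name carries the number of a gene copy are given beside their list. In the miR-17-92 cluster, which promotes proliferation, 2 of 7 listed members rose and 3 fell, from miR-18a-5p (log2 change −3.31) to miR-92a-3p (1.45), the latter from 11006, 7028, 8903, and 10823 TPM to 28727, 28734, 22353, and 22737 TPM. miR-92a-3p is encoded at 2 loci, so its rise cannot be credited to this cluster alone. From the miR-17-92 locus, miR-92a-1-5p rose from 548 ± 74.4 to 1988 ± 282 TPM (1.86, adjusted p = 8.50e-07). Its relative, the miR-106b-25 cluster, had 4 of 6 members lower and 2 higher. miR-93-5p fell from a mean of 17018 to 4559 TPM (−1.89) and miR-25-3p from 33802 ± 4218 to 17651 ± 293 TPM (−0.93), whereas miR-25-5p rose from 190.1 to 1361 TPM (2.92). Of the miR-106a-363 cluster, 3 of 5 listed members rose, among them miR-20b-5p (0.79), as did miR-92a-2-5p of the same locus, from 51.8 ± 29.2 to 235 ± 39.7 TPM (2.40, adjusted p = 0.000454). miR-92a-2-5p passed the limit of 100 TPM only through the *Ago2* KO/CLIPΔ libraries, so its difference is in part set by the limit.

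In the miR-183 cluster, known from sensory organs and also abundant in mESCs, miR-96-5p rose from 173, 305, 124, and 85.7 TPM to 5686, 5737, 6259, and 6239 TPM (34.7-fold, log2 change 5.27, SE 0.32, adjusted p = 4.00e-08, limma). miR-183-5p fell from 57082, 53416, 59582, and 63719 TPM to 21641, 21847, 20796, and 21613 TPM (−1.44, SE 0.09, adjusted p = 5.45e-08). miR-182-5p had 63303, 50527, 49435, and 48977 TPM in CLIPΔ and 47176, 46035, 51069.9, and 49735 TPM in *Ago2* KO/CLIPΔ libraries (−0.12, SE 0.10, adjusted p = 0.294), and it was called lower with quantile normalization alone (−0.48, adjusted p = 0.000809). Thus 1 transcript gave a miRNA with no overlap upward, another with no overlap downward, and one whose libraries overlapped.

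Among epithelial and general families, the miR-200 family, which targets *Zeb1* and *Zeb2*, had 1 of 5 members higher (miR-200b-3p, 2.73) and 2 lower (miR-141-3p, −3.63, and miR-429-3p, −1.98). The miR-30 family had 3 of 6 listed members higher and none lower, up to miR-30b-3p (1.77), while miR-30a-3p (0.03, SE 0.14) and miR-30a-5p (0.08, SE 0.22, turned in sign by other scalings) were not called. Outside the list by name, miR-30c-2-3p rose (2.54) and miR-30c-1-3p was not called (0.27, SE 0.25). In the miR-15 and miR-16 family, which acts on cyclins, miR-15a-5p fell (−3.08), miR-195a-5p (3.17), miR-195a-3p (5.01), and miR-15b-3p (0.66) rose, and miR-15b-5p was not called (−0.09, SE 0.19). miR-16-5p was not among the members, but the minor arms of both miR-16 genes were, and of these miR-16-1-3p rose (2.49) and miR-16-2-3p fell (−0.57). Both members of miR-221 and miR-222 were lower (miR-221-3p −2.02), as were miR-34a-5p (−1.79), a p53-induced miRNA, and miR-26b-5p (−1.06), whereas miR-26a-2-3p rose (1.72). The miR-23/27/24 clusters had 4 of 6 members higher and none lower, of which miR-27b-3p (0.49) lost its call with quantile normalization (0.16, adjusted p = 0.422) and with averaged library pairs (adjusted p = 0.0651), and the miR-322 list 3 of 4 higher and 1 lower (miR-322-5p, −1.34). Neither miR-451 nor miR-486, whose precursors are cut by Ago2 itself, was listed in the table.

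**Figure D3:**
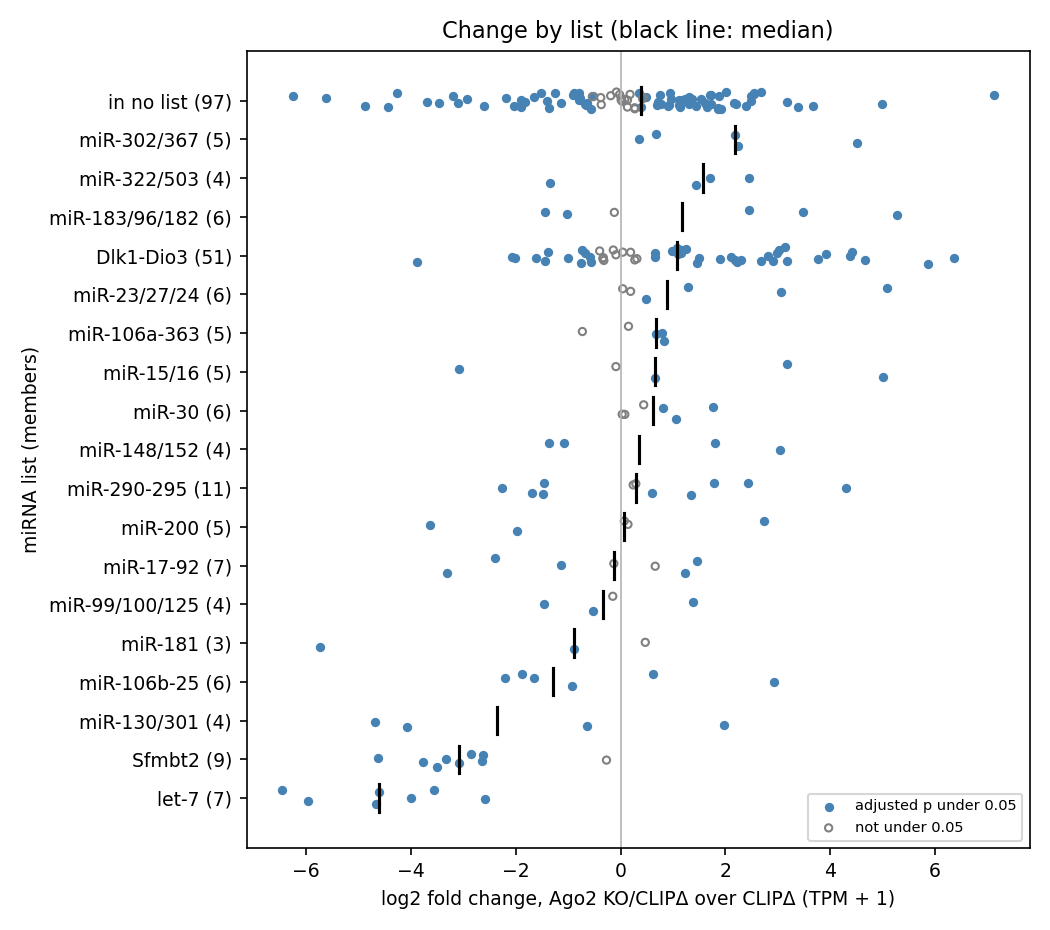
log2 change (*Ago2* KO/CLIPΔ minus CLIPΔ) of each member by list, for lists with at least 3 members and for the 97 members in no list, with filled points for an adjusted p under 0.05 and a black line at the median. The let-7 list spans −6.46 to −2.58, the Sfmbt2 list −4.64 to −0.27, and the Dlk1–Dio3 list −3.88 to 6.36.

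The largest decreases outside the let-7 family were in miRNAs of several loci. miR-324-5p stood at 385, 328, 317, and 271 TPM in CLIPΔ and at 2.21, 5.22, 1.68, and 5.10 TPM in *Ago2* KO/CLIPΔ libraries (log2 change −6.25, SE 0.29, adjusted p = 5.50e-09, limma), where it rests on 2 to 7 reads. miR-181c-5p, of a family active in lymphocytes, fell from 1933, 3053, 1615, and 1105 TPM to 25.5, 36.1, 32.5, and 38.9 TPM (−5.73). miR-181d-5p, which lies next to it on chromosome 8 and shares its seed, fell by 0.89, from 9772 ± 1630.4 to 5246 ± 365 TPM. All *Ago2* KO/CLIPΔ libraries lay below all CLIPΔ libraries for each of these. Of them, miR-324-5p and miR-181c-5p passed the limit of 100 TPM only through the CLIPΔ libraries, so their difference is in part set by the limit.

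miR-147-3p fell from 395, 579, 366, and 165 TPM to 6.95, 7.65, 5.28, and 4.58 TPM (−5.62, SE 0.34). miR-107-3p fell from 2042 ± 273 to 68.4 ± 7.55 TPM (−4.88), miR-130b-3p from 2238, 2797, 2054, and 1627 TPM to 83.4, 77.6, 85.3, and 82.4 TPM (−4.69), and miR-130a-3p from 4482 ± 936 to 261 ± 24.7 TPM (−4.08). The groups were separate in every case, and the *Ago2* KO/CLIPΔ libraries lay close together. Here too, miR-147-3p, miR-107-3p, and miR-130b-3p passed the limit of 100 TPM only through the CLIPΔ libraries.

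Several of the largest increases were in miRNAs that were scarce in CLIPΔ mESCs. miR-3963 had the highest log2 change of all members, from 1.06, 1.5, 1.16, and 2.28 TPM to 223, 369, 430.0, and 395 TPM (7.13, SE 0.25, adjusted p = 1.06e-09, limma), with 6 to 10 reads per CLIPΔ library. It is among the members that passed the limit only through the *Ago2* KO/CLIPΔ libraries, as are miR-195a-3p, miR-224-5p, miR-27a-5p, and miR-494-3p. miR-195a-3p rose from 7.14, 2.84, 5.38, and 5.53 TPM to 252, 256, 149.5, and 143 TPM (5.01), with libraries 1 and 2 above libraries 3 and 4. miR-224-5p rose from 7.56 ± 2.45 to 260.5 ± 14.7 TPM (4.98), and miR-27a-5p from 59.6, 42.8, 18.8, and 15.3 TPM to 1050.3, 1096, 1017, and 958 TPM (5.08). The remaining 3 of the 8 highest, beside miR-96-5p, were miRNAs of the Dlk1–Dio3 region. For all of these the lowest *Ago2* KO/CLIPΔ library was above the highest CLIPΔ library.

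The Dlk1–Dio3 region on chromosome 12 is imprinted, and its long maternal transcripts carry a large group of miRNAs. It gave 51 members, 29 of which rose, 12 fell, and 10 were not called, where 46.2% of all members rose and 36.1% fell. The median log2 change was 1.07, against 0.27 for all members. The share of all 79 listed in the table was 9.74%, 8.20%, 9.82%, and 11.6% of the TPM in CLIPΔ and 24.3%, 25.1%, 23.9%, and 24.3% in *Ago2* KO/CLIPΔ libraries, a 2.48-fold difference with no overlap. miR-494-3p rose from 72.1, 122, 85.8, and 95.6 TPM to 7874, 7499, 7619.8, and 7682 TPM (81.7-fold, log2 change 6.36, SE 0.17, adjusted p = 4.29e-10, limma). miR-381-3p rose from 335, 455, 204, and 143 TPM to 13472, 15415, 15261, and 16105 TPM (5.86), and miR-434-5p from 772, 776, 594, and 315 TPM to 14039.6, 15527, 14559, and 15074 TPM (4.67). miR-127-3p, the most abundant of the region in both genotypes, rose from 28199.7 ± 5555 to 62565 ± 2471 TPM (1.17). The lowest change was that of miR-431-5p, which fell from 3397, 2562, 3769, and 3708 TPM to 225, 202, 248, and 227 TPM (−3.88, SE 0.16). miRNAs of the same region thus moved apart by up to 10.24 on the log2 scale.

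The Sfmbt2 list holds miRNAs of the large, repeated cluster inside an intron of *Sfmbt2* (miR-466, miR-467, and miR-669), whose sequences are so alike that the split of reads between them is uncertain. Of 9 members, 8 fell and miR-466d-3p was not called (−0.27, SE 0.16), where 36.1% of all members fell. The median was −3.08. The share of all 18 listed in the table was 1.46%, 1.39%, 1.27%, and 1.40% in CLIPΔ and 0.177%, 0.170%, 0.151%, and 0.146% in *Ago2* KO/CLIPΔ libraries, 8.57-fold lower without overlap. miR-669c-5p fell from 5374, 3906, 4296, and 6253 TPM to 225, 209, 178, and 172 TPM (−4.64, SE 0.18, adjusted p = 1.75e-09, limma), and miR-467c-5p from 3883 ± 313 to 633 ± 90.3 TPM (−2.62).

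The same loss of Ago2 was then set beside that outside the CLIPΔ background. Between *Ago2* KO and WT mESCs, 199 of 240 miRNAs were called (82.9%), 120 of them higher (50%) and 79 lower (32.9%) without Ago2. The depth there was also lower without Ago2 (medians of 939502 and 6936036 reads). Of the 249 members, 217 had the same sign of change in both backgrounds and 162 were called in both with the same sign. The difference of the changes was tested by the interaction term of a fit to all 16 libraries, a fit in which the backgrounds share no library. WT and CLIPΔ libraries carry the same letters, and the fit did not pair them by letter. Library D was the shallowest of both genotypes (5489208 and 3165634 reads) and library B the deepest (8420055 and 7947222 reads). The labels do not say whether libraries of the same letter were made together. The interaction was called for 123 of 249 miRNAs (49.4%), 57 positive (22.9%) and 66 negative (26.5%), and for 120 of the 244 members that it tested. The limit for this fit was a mean of at least 100 TPM over the 16 libraries, so a miRNA could pass through a single genotype.

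The let-7 family differed most. The interaction was called negative for 6 of 6 members tested, where 26.5% of all miRNAs were called negative. let-7f-5p was not tested, as its mean over the 16 libraries was under 100 TPM. The median interaction was −4.08 on the log2 scale against −0.13 for all members. For let-7d-5p it was −4.46 (SE 0.45, adjusted p = 1.21e-06, limma), since the log2 change was −5.96 in the CLIPΔ and −1.5 in the WT background. For let-7b-5p it was −4.30 (SE 0.59), for let-7i-5p −4.12 (SE 0.53), for miR-98-5p −4.04 (SE 0.54), for let-7g-5p −3.46 (SE 0.45), and for let-7e-5p −2.48 (SE 0.26). In the WT background let-7g-5p (−0.11, SE 0.39) and let-7i-5p (0.11, SE 0.44) were not called. The WT libraries were uneven in let-7, with shares of 0.974% and 1.11% in libraries A and B and 0.448% and 0.346% in C and D, and these lie under all CLIPΔ libraries. miR-147-3p also fell more in the CLIPΔ background (interaction −3.61, SE 0.69, adjusted p = 0.000346), from a WT mean of 57.9 TPM and a CLIPΔ mean of 376 TPM to 10.7 and 6.11 TPM without Ago2. It passed the limit of 100 TPM only through the CLIPΔ libraries, so its interaction is in part set by the limit.

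The Dlk1–Dio3 miRNAs differed in the other direction. Of 50 tested, 42 had a called positive interaction and none a negative one, with a median of 1.20, where 22.9% of all miRNAs were called positive. Their median log2 change was 1.07 in the CLIPΔ and −0.21 in the WT background. There the share of the whole list was 12.9% ± 1.51 with and 13.6% ± 0.412 without Ago2 (SD, n = 4 each). miR-494-3p rose in both (interaction 1.48, SE 0.22), miR-127-5p rose more in CLIPΔ mESCs (3.14 against 1.05, interaction 2.09), and miR-376b-5p fell less (−0.75 against −2.63, interaction 1.88). The Sfmbt2 miRNAs had a negative interaction for 9 of 9, with a median of −1.93, where 26.5% of all miRNAs were called negative, and miR-669c-5p had −2.47 (SE 0.30). The share of the whole Sfmbt2 list was 0.419% ± 0.0768 in WT and 0.202% ± 0.0132 in *Ago2* KO mESCs (SD, n = 4 each).

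All 5 miR-302 members had a called positive interaction, where 22.9% of all miRNAs did. miR-302d-3p rose in the CLIPΔ background (0.36) and fell in the WT background (−0.91), a difference of 1.27 (SE 0.20, adjusted p = 6.64e-05, limma), and miR-302a-3p behaved alike (0.67 against −0.72). Of the members called in both backgrounds, 6 had opposite signs, the other 4 being miR-376c-3p (0.66 against −0.79), miR-10b-5p (0.76 against −1.40), miR-541-5p (1.07 against −0.30), and miR-29a-3p (−0.80 against 0.95). By contrast, of 10 miR-290-295 members tested only miR-291b-5p had a called interaction (−1.04, SE 0.31, adjusted p = 0.0101), and it was lost with quantile normalization (−0.67, adjusted p = 0.0992). None was called among the 7 miR-17-92, 5 miR-106a-363, 4 miR-130, 4 miR-148, and 3 miR-181 listed members, while that of miR-92a-1-5p was (0.82, SE 0.25, adjusted p = 0.0106).

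**Figure D4:**
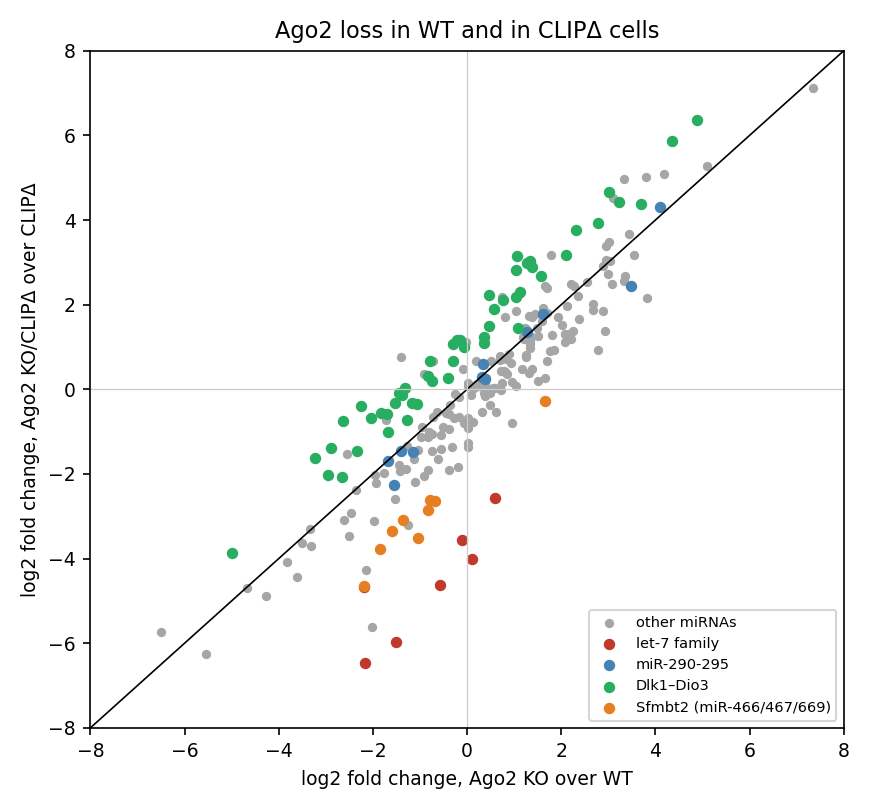
log2 change on loss of Ago2 in the WT background (x axis, *Ago2* KO minus WT) against the CLIPΔ background (y axis, *Ago2* KO/CLIPΔ minus CLIPΔ) for the 249 members, 4 libraries per genotype, with the line of equal changes. The let-7 and Sfmbt2 points lie below the line, with median changes of −0.58 and −1.04 (x) against −4.62 and −3.08 (y), and most Dlk1–Dio3 points lie above it.

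The arms of a hairpin come from 1 transcript and are compared within a library, so their ratio does not depend on how libraries were scaled. For 56 hairpins both arms were members, and the ratio of 5p to 3p differed between the genotypes in 51 (91.1%), toward 5p in 21 (37.5%) and toward 3p in 30 (53.6%). The change was toward the arm that had been the less abundant in CLIPΔ mESCs in 36 of these and toward the more abundant in 15, a count that describes these libraries, since the less abundant arm was named from them. In 15 hairpins the more abundant arm was a different one in the 2 genotypes. An arm could pass the limit of 100 TPM through a single genotype, so these counts are in part set by the limit. Both arms were called higher in 17 hairpins, both lower in 8, and the arms were called in opposite directions in 15.

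miR-130b had the highest change of the ratio. Its 5p arm made up 15.6%, 11%, 18.7%, and 30.8% of the hairpin’s TPM in CLIPΔ and 96%, 96.5%, 95.1%, and 95.2% in *Ago2* KO/CLIPΔ libraries (log2 change of the ratio 6.66, SE 0.34, adjusted p = 2.74e-09, limma), as the 3p arm fell and miR-130b-5p rose from 489.7 ± 166 to 1866 ± 264 TPM. In miR-291b the 5p arm went from 47.1% ± 5.90 to 95.9% ± 0.809 (SD, n = 4 each, log2 change 4.71), and in miR-409 from 0.430% ± 0.129 to 7.30% ± 0.841 (4.19), with the 3p arm the more abundant in both genotypes.

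The lowest changes were those of miR-181c, miR-324, and miR-151. The 5p arm of miR-181c held 77.1%, 83.7%, 80.1%, and 81.7% in CLIPΔ and 4.22%, 5.95%, 4.77%, and 6.22% in *Ago2* KO/CLIPΔ libraries (−6.20, SE 0.21, adjusted p = 2.49e-10), while miR-181c-3p stood at 455 ± 164 and 596 ± 36 TPM (0.47, SE 0.26, not called). That of miR-324 went from 71.0% ± 9.58 to 4.23% ± 2.14 (−5.58) and that of miR-151 from 73.1% ± 5.97 to 6.35% ± 1.36 (−5.36). In none of the 6 hairpins did the libraries of the genotypes overlap. Of their arms, miR-130b-3p, miR-291b-3p, miR-181c-5p, and miR-324-5p passed the limit of 100 TPM only through the CLIPΔ libraries. The changes of these hairpins are thus in part set by the limit. In miR-294 and miR-295 the 3p arm stayed the more abundant, with a 5p share that rose from 1.01% to 3.87% and from 0.868% to 2.78%.

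**Figure D5:**
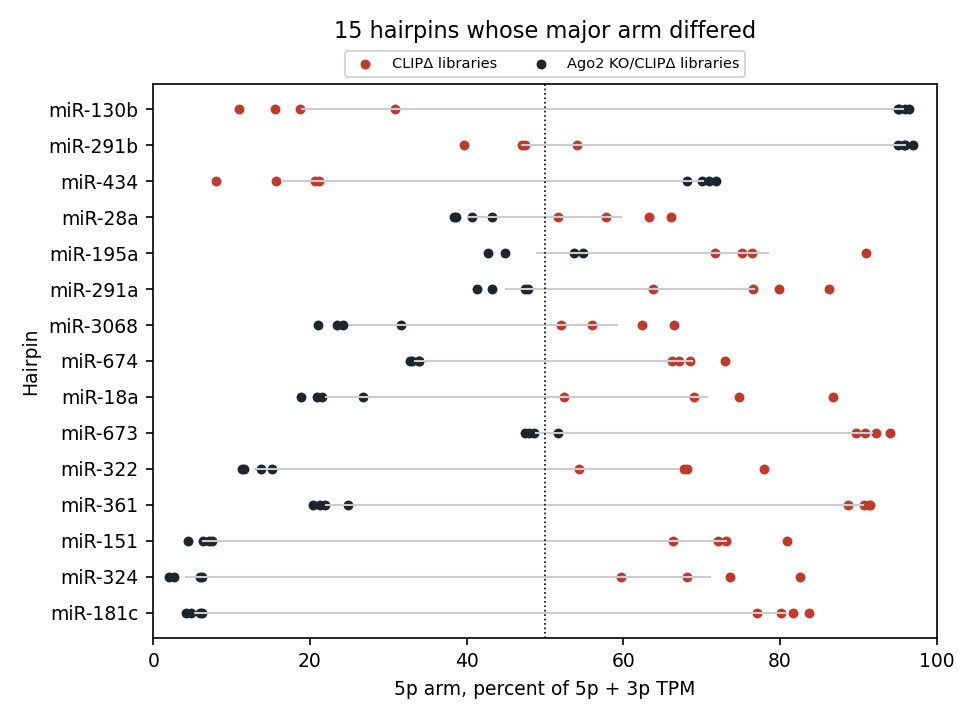
Percent of a hairpin’s TPM in its 5p arm, in each CLIPΔ and *Ago2* KO/CLIPΔ library, for the 15 hairpins whose more abundant arm differed between the genotypes, 1 dot per library. miR-130b moved from a mean of 19% to 95.7% 5p and miR-181c from 80.6% to 5.29%.

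Features of the mature sequence that the choice of members did not use were described over the 216 members with a sequence. By the first base, the median log2 change was 0.47 for A (65 members), 0.43 for U (93), −0.03 for G (16), and −0.08 for C (42), and each of these groups held called members in both directions. The median was 0.48 over 106 members of the 3p arm, 54 of them called higher and 32 lower, and 0.04 over 104 of the 5p arm, with 42 higher and 45 lower. By the last base, the median was 0.91 for C (45 members, 25 higher and 11 lower), 0.66 for A (33), 0.16 for U (92), and −0.05 for G (46 members, 18 higher and 19 lower). Members of 21 bases had a median of 0.94 (38 members), those of 22 bases 0.22 (124), and those of 23 bases 0.15 (36). These medians carry no test, and the groups overlapped widely, for example with 25th and 75th percentiles of −1.06 and 1.45 for members that begin with U.

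In the RNA-seq, 5394 of 11256 genes were called (47.9%), 1205 higher (10.7%) and 4189 lower (37.2%), with a median log2 change of −0.25, so single genes are given beside that median. For some genes, though not all, *Ago2* KO/CLIPΔ libraries 1 and 2 lay apart from libraries 3 and 4, as for *Tut7* (5.32 and 5.54 against 8.52 and 8.86 TPM). The test took them as 4 separate replicates, and no fit averaged these pairs, so the RNA-seq p-values may be too small. Among the other Argonautes, *Ago1* fell from 67.9 and 59.7 TPM to 38.9, 41.1, 49.6, and 46.9 TPM (log2 change −0.53, adjusted p = 0.0147, limma), a call that was lost without CLIPΔ library 1 (−0.43, adjusted p = 0.0866). *Ago3* (1.17 against 0.618 TPM) and *Ago4* (0.496 against 0.211 TPM) were under the limit of a mean of 1 TPM and were not tested. *Ago1* was thus the most abundant Argonaute mRNA in both genotypes.

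Of 8 genes that process miRNAs, 4 were lower and 1 was higher, where 37.2% of all tested genes were lower and 10.7% higher. *Dicer1*, which cuts the hairpin to the duplex, had −0.60 (adjusted p = 0.0148), *Dgcr8*, which binds the primary transcript, −0.75 (0.0152), the helicases *Ddx5* −1.12 (0.00312) and *Ddx17* −0.66 (0.0103), and *Tarbp2*, a partner of Dicer, 0.52 (0.0221). *Drosha* (−0.16) and *Xpo5* (−0.14) were not called. Relative to the median of all genes, the called values were −0.35 (*Dicer1*), −0.5 (*Dgcr8*), −0.87 (*Ddx5*), −0.41 (*Ddx17*), and 0.77 (*Tarbp2*). Of the silencing partners *Tnrc6a* to *Tnrc6c*, *Tnrc6a* (−0.85, or −0.6 relative to that median) and *Tnrc6c* (−0.49, or −0.24) fell. Of 11 tested genes that act on let-7 or degrade miRNAs, 7 fell and none rose, where 37.2% of all tested genes fell. Examples are *Tut7* (−0.98, or −0.73 relative to the median of all genes), *Xrn1* (−0.97, or −0.71), and *Tut4* (−0.81, or −0.55). They are, respectively, a uridylyltransferase, an exonuclease, and a uridylyltransferase. *Lin28a*, the inhibitor of let-7 processing and itself a let-7 target, stood at 44.6 and 72.1 TPM in CLIPΔ and at 102, 95, 68.9, and 74 TPM in *Ago2* KO/CLIPΔ libraries (0.55, adjusted p = 0.0775), with overlapping groups. *Trim71* did not pass either (−0.14).

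The mRNAs that define mESCs were present in both genotypes. The 7 mESC markers in the table summed to 9997 and 10011 TPM in the CLIPΔ libraries and to 9396 to 12578 TPM in the *Ago2* KO/CLIPΔ libraries, with *Pou5f1* higher (0.30) and *Nanog* (−0.59) and *Tfcp2l1* (−0.55) lower. The 14 markers of other cells in the table (endoderm, mesoderm, neural, trophoblast, and fibroblast) summed to 214 and 228 TPM and to 179 to 245 TPM. Among them *Tubb3* (0.94) and *Eomes* (0.62) were higher and *Nes* (−1.57) was lower, and 5 of the 14 had a mean under 1 TPM. The part of these markers in the miRNA differences was not tested.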

How the data were processed

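The authors mapped small RNA-seq and RNA-seq reads to mm10 with HISAT2 2.1.0, counted them on the longest transcript with HTSeq, and deposited TPM values per library. The small RNA table lists 507 miRNAs with a value above 0 in all 16 libraries, so a miRNA with no read in 1 or more of them is not in it. A miRNA lost completely without Ago2 could thus not be seen. Multiplied by the miRNA’s effective length and divided by the value of 1 read in its library, all 507 gave whole numbers (within 0.05) in the 16 libraries, the inferred reads. The tests used limma 3.58.1 in R 4.3.3 (lmFit, eBayes with trend) on log2(TPM + 1), with a pseudocount of 1, means of at least 100 TPM (miRNAs) or 1 TPM (genes), and Benjamini–Hochberg adjustment, since TPM is no count. These fold changes understate changes of low values. The code was tested on simulated data. Tables and figures used Python 3.11.15, numpy 2.4.6, pandas 2.3.3, and matplotlib 3.10.9.

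The members and lists were chosen with earlier results of these data known. Named miRNAs were all let-7 and miR-290-295 members, 3 that the study measured singly (miR-16-5p, miR-30a-5p, miR-183-5p), miRNAs cut by Ago2, the 5 most abundant members in CLIPΔ, the most abundant of each list, the 8 highest and 8 lowest changes without overlap, the 5 highest and 5 lowest interactions, and the 3 highest and 3 lowest arm changes. Others are named as examples of their list and were chosen after their values were seen. Alternatives covered the pseudocount, filter, scaling, reads in place of TPM, equal depth, and leaving out each library. CLIP-seq peaks were not used here.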

Additional observations from a re-analysis of the deposited data

Results flagged for a closer look

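Of 110 groups of 4 libraries examined for the named miRNAs, 2 held a library far from the other 3, where chance gives about 5% of groups. miR-130a-3p had 224 TPM in *Ago2* KO/CLIPΔ library 2 and 272 to 274 TPM in the others. miR-182-5p had 63303 TPM in CLIPΔ library A and 48977 to 50527 TPM in the others.

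By the limma interaction over 16 libraries, the change on loss of Ago2 differed between the CLIPΔ and WT backgrounds for 123 of 249 miRNAs (49.4%). The named miRNAs hold the 5 highest and 5 lowest called interactions by rule, so their count is no result about them. The interaction was called for 26 of 55 named miRNAs tested. It was negative, a lower change in the CLIPΔ background, for let-7d-5p (−4.46), let-7b-5p (−4.30), let-7i-5p (−4.12), miR-98-5p (−4.04), miR-147-3p (−3.61), let-7g-5p (−3.46), let-7e-5p (−2.48), miR-669c-5p (−2.47), miR-291b-5p (−1.04), miR-27b-3p (−0.87), miR-99b-5p (−0.72), miR-200c-3p (−0.61), miR-25-3p (−0.54), and miR-183-5p (−0.39). It was positive for miR-125b-1-3p (3.25), miR-10b-5p (2.16), miR-127-5p (2.09), miR-450b-5p (1.99), miR-376b-5p (1.88), miR-434-5p (1.66), miR-224-5p (1.65), miR-381-3p (1.51), miR-494-3p (1.48), miR-127-3p (1.31), miR-302d-3p (1.27), and miR-195a-3p (1.21). miR-125b-1-3p and miR-450b-5p had a mean under 100 TPM over the 8 libraries and are no members. The depth differed by the *Ago2* genotype in both backgrounds. With every library thinned to the depth of the shallowest, 121 interactions were called, and that of miR-195a-3p lost its call (1.57, adjusted p = 0.0937, limma). The part of other differences in preparation was not tested.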

How the results depend on the processing

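Called in the main comparison were 374 of 507 miRNAs with no filter, 80 of 96 with means of at least 1000 TPM, and 130 of 169 with at least 100 TPM in every library, which differ from 205 of 249 because other miRNAs were tested. The interaction gave 211 of 507 and 47 of 95 under the first pair of these filters, and arm balance 124 of 154 hairpins with no minimum and 8 of 9 at 1000 TPM. Leaving out 1 library gave 196 to 211 called miRNAs, 114 to 136 interactions, and 47 to 51 hairpins. With every library thinned to the depth of the shallowest, 203 miRNAs were called, and 188 with libraries 1 and 2 and libraries 3 and 4 averaged, a setting chosen after seeing the data. Median centring, leaving let-7 out of the totals, and quantile normalization moved the median log2 change from 0.27 to 0.13, 0.17, and 0.06 and the higher and lower calls from 115 and 90 to 111 and 95, 111 and 94, and 109 and 95. Signs turned for miR-200c-3p (−0.01 with median centring, −0.06 with quantile normalization), miR-30a-5p (−0.07 with median centring, −0.02 without let-7, −0.15 to 0.23 with 1 library left out), and miR-15b-5p (−0.24 to 0.08 with 1 library left out), none of them called, and for the interaction of miR-195a-3p (−0.41 with quantile normalization). The cause was not tested. Of 1120 values of single miRNAs in the main comparison, 1100 kept direction and call, 13 lost the call, 1 gained it (miR-182-5p, −0.48 with quantile normalization), and 6 turned. Among interactions, that of miR-99b-5p lost its call under most settings that leave out a library and with median centring, quantile normalization, and voom. Calls were also lost with median centring for miR-183-5p (−0.27), miR-200c-3p (−0.49), and miR-25-3p (−0.42), with quantile normalization for miR-200c-3p (−0.42), miR-224-5p (0.64), and miR-291b-5p (−0.67), with a pseudocount of 10 (0.50) or equal depth (1.57) for miR-195a-3p, with no filter or without WT library A or C for miR-183-5p (−0.39 to −0.32), and without WT library C for miR-200c-3p (−0.48). Depth limits miRNAs such as miR-324-5p and let-7b-5p without Ago2.

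No paired analysis of the main comparison was possible for the small RNA-seq because the CLIPΔ columns carry letters and the *Ago2* KO/CLIPΔ columns numbers. For the interaction, no pairing of WT with CLIPΔ libraries by letter, or of the *Ago2* KO genotypes by number, was fitted. In the RNA-seq, the numbers 1 and 2 did not pair the libraries (correlation of deviations 0.046), and the fit with the replicate number as a block called 5102 genes. Leaving out 1 RNA-seq library gave 2797 (without CLIPΔ library 1) to 5642 called genes.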

Other observations

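Host transcripts of 3 of the miRNA groups were looked up in the RNA-seq after the miRNA values had been seen, so they support nothing. *Meg3*, *Rian*, and *Mirg* are the maternal noncoding RNAs of the Dlk1–Dio3 region. *Meg3* stood at 82.3 and 68.7 TPM in CLIPΔ and at 39.3, 50, 73.1, and 66.7 TPM in *Ago2* KO/CLIPΔ libraries (adjusted p = 0.175, limma). *Rian* had 20.3 and 21.4 TPM against 16.1 to 26.3 TPM (0.983), and *Mirg* 13.3 and 14.7 TPM against 12.2 to 14.2 TPM (0.716). For all of these the genotypes overlapped. In the WT background the means were 139 TPM with and 26.9 TPM without Ago2 for *Meg3*, 35.3 and 10 TPM for *Rian*, and 25.8 and 6.92 TPM for *Mirg*.

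*Mir17hg*, the host of the miR-17-92 cluster, fell from 56.4 and 30.8 TPM to between 6.72 and 8.20 TPM (log2 change −2.37, adjusted p = 0.00135), beside 2 of its 7 listed miRNAs that rose and 3 that fell and miR-92a-1-5p, which rose. Of those that rose, miR-92a-3p is encoded at 2 loci. *Sfmbt2* had 1.67 and 1.27 TPM in CLIPΔ and 0.331 to 0.475 TPM in *Ago2* KO/CLIPΔ libraries and was under the limit for testing.

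Of the 97 members in no list, 48 rose and 33 fell, where 46.2% and 36.1% of all members did. Their median log2 change was 0.38. Of 96 tested, 39 had a negative and 5 a positive interaction, where 26.5% and 22.9% of all miRNAs did. miR-361 was an example of arms that moved apart, with miR-361-5p down from 3597 ± 628 to 585 ± 24.9 TPM and miR-361-3p up from 374 ± 75.4 to 2069 ± 147 TPM (SD, n = 4 each).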
